A study of Arabidopsis thaliana with 13 samples.

Results

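Within the wox5-1 mutant of Arabidopsis thaliana (ecotype Col-0), QC-marker cells of the root were set against CEI-marker cells. The 4 libraries of QC-marker cells came from roots that carried WOX5::GFP, and the 3 libraries of CEI-marker cells came from roots that carried CYCD6::GUS-GFP. Plants of both groups were wox5-1 mutants, so the comparison is between populations of cells that all carry the same mutation of WOX5. Seedlings grew for 5 days, their roots were turned into protoplasts, and the labels call the cells sorted, with cDNA then amplified from low input with a SMARTer kit. These 7 libraries are part of a series of 13, whose other 6 are wild-type cells with the same reporters (3 of each population). The deposited values are FPKM, fragments scaled by transcript length and by library depth. A gene was compared if 3 or more of the 7 libraries listed it at 1 FPKM or above, which left 19735 of the 33560 genes in the deposited table. Values are given in the order of QC-marker libraries 1, 2, 3 and 4 and of CEI-marker libraries 1, 2 and 4, as the columns number them. The titles call the libraries biological replicates and do not say which plants or sorts were separate, so p-values measure the spread between these libraries, which may in part be technical.

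The quiescent centre (QC) is a small group of rarely dividing cells at the root tip that keeps the neighbouring stem cells from differentiating, and WOX5, a homeobox transcription factor, is made there. The cortex-endodermis initial (CEI) divides to give the cortex and endodermis, and the D-type cyclin CYCD6;1 is switched on at that division by the transcription factors SHR and SCR. The title of the series concerns feedback among WOX5, PAN (PERIANTHIA), which encodes a bZIP transcription factor, and AN3, also called GRF-INTERACTING FACTOR 1, whose product is a coactivator.

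The gene carrying the mutation, WOX5 (AT3G11260), stood at 0, 0.114, 0.0785 and 0.0528 FPKM in QC-marker cells, against 0, 0 and 0.207 in CEI-marker cells. All 7 values were close to 0, whereas wild-type cells with the QC reporter had 255, 262 and 163 FPKM, and WOX5 did not pass the filter on low values. PAN (AT1G68640) stood at 17.6, 24.9, 12.7 and 11.8 FPKM in QC-marker cells, against 2.28, 2.602 and 3.91 in CEI-marker cells. Its groups did not overlap, and it was higher in QC-marker cells by limma's moderated test, in which a gene was called at a Benjamini-Hochberg adjusted p under 0.05 (difference 2.14 on the log2 scale, SE 0.32, adjusted p = 0.00299). PAN kept that call without each library in turn, and lost it when all 13 libraries of the series shared 1 fit. Its annotated span overlaps 2 other genes, and the sources used here do not say if the counting used strand.

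AN3 (AT5G28640) had the opposite sign. Its level was 19.1, 30.4, 25.4 and 17.2 FPKM in QC-marker cells, against 135, 49.1 and 24.1 in CEI-marker cells. CEI-marker library 1 was the highest and CEI-marker library 4 lay among the QC-marker libraries, so the groups overlapped and AN3 was not called (difference -1.24 on the log2 scale, SE 0.50, adjusted p = 0.0943). With median-of-ratios scaling it was called lower, and without CEI-marker library 1 the difference was -0.60 (adjusted p = 0.177 by limma). The remaining 3 genes of the network were not called either. CYCD6;1 (AT4G03270), the gene whose promoter names the CEI reporter, was at 5.75, 5.39, 4.68 and 4.56 FPKM in QC-marker cells, against 4.33, 5.47 and 0.748 in CEI-marker cells. The groups overlapped, CEI-marker library 4 being below the other 6, and the gene was not called (difference 0.63 on the log2 scale, SE 0.45, adjusted p = 0.312). SCR (AT3G54220) was at 26.4, 38.03, 30.02 and 25.7 FPKM in QC-marker cells, against 38.8, 22.4 and 11.2 in CEI-marker cells, and SHR (AT4G37650) was at 1.002, 2.19, 2.16 and 1.52 FPKM in QC-marker cells, against 0.5698, 3.96 and 0.562 in CEI-marker cells. Both overlapped between the groups, and SHR, with a log2 difference of 0.22, changed sign with median-of-ratios scaling (-0.037).

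The 7 libraries were of similar estimated depth and differed in spread and composition. Steps in the FPKM values gave an estimated 27.0, 33.6, 25.1 and 39.4 M mapped fragments in QC-marker cells (M, mega) and 31.7, 20.6 and 28.2 M in CEI-marker cells. Over the genes tested, the SD of log2(FPKM + 1) within a group had a median of 0.265 in QC-marker cells and 0.533 in CEI-marker cells. Correlations across genes between 2 libraries ran from 0.937 to 0.973 within QC-marker cells, from 0.816 to 0.883 within CEI-marker cells and from 0.721 to 0.851 between the groups. Chloroplast-encoded transcripts made up 0.566, 0.142, 0.179 and 0.453% of summed FPKM in QC-marker cells, against 3.38, 2.56 and 1.75% in CEI-marker cells. CEI-marker library 1 stood apart in the nuclear list of green tissue genes (photosynthesis genes of leaves), whose 17 members summed to 53.5, 29.9, 32.2 and 48.5 FPKM in QC-marker cells and to 18486, 118 and 92.3 FPKM in CEI-marker cells. RBCS1A, the small subunit of Rubisco, carried much of that sum, at 0, 0.0389, 0 and 0.417 FPKM in QC-marker cells, against 6006, 3.68 and 19.7 in CEI-marker cells. In sorted bulk samples such as these, fewer cells of a type and less RNA per cell cannot be told apart.

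**Figure D1:**
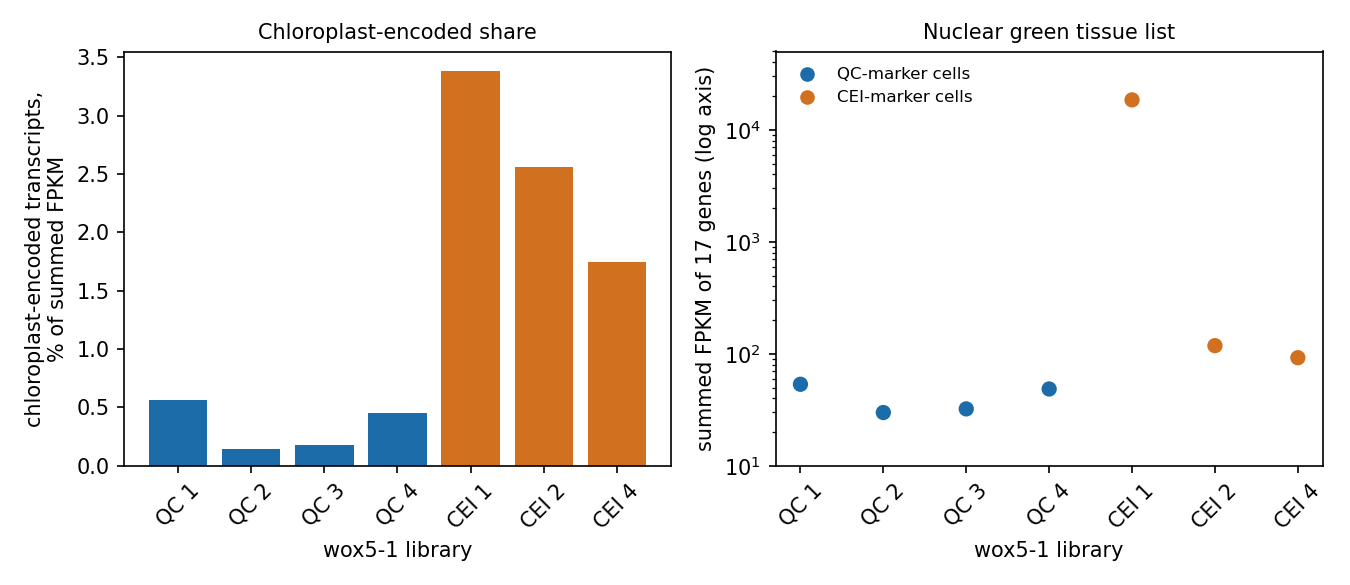
Left, chloroplast-encoded transcripts as a percentage of summed FPKM, 1 bar per wox5-1 library (linear axis from 0). Right, the summed FPKM of the 17 nuclear green tissue genes on a log axis, 1 point per library. QC-marker libraries lie between 0.142 and 0.566% and CEI-marker libraries between 1.75 and 3.38%, and CEI-marker library 1 reaches 18486 FPKM on the right, against at most 118 FPKM in the other 6.

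Across the transcriptome the populations differed widely. Limma called 5298 of 19735 genes, or 26.8%, with 3975 higher in QC-marker cells (20.1%) and 1323 lower (6.7%). Of those, 562 were higher and 461 were lower by at least 2 on the log2 scale, a 4-fold difference in FPKM + 1. The values of 7416 genes (37.6%) did not overlap between the groups, with 5663 higher (28.7%) and 1753 lower (8.88%). These shares are the background against which each gene list below is to be read.

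The excess of higher over lower calls depended on the scaling. All genes tested had a median log2 difference of 0.37, which was 0.01 after median-of-ratios scaling and 0.07 after quantile normalization. With those scalings 1634 genes were higher and 1833 lower, and 1898 were higher and 1734 lower. A difference near 0.37 is therefore that of the median gene. With a variance weight per group, which lets CEI-marker cells vary more, 3028 genes were called (15.3%), and without CEI-marker library 1 the count was 7921 (41.5%). A core of 1784 genes, 1473 higher and 311 lower, was called without each library in turn, with the variance weights and with median-of-ratios scaling, and members of it are described below as stable. A gene could join the core only if it passed the filter without each library. That held for 3945 of the 3975 higher and 891 of the 1323 lower calls. The split of the core is therefore partly set by the filter. Genes that passed through the 4 QC-marker libraries alone could still join, and these had to differ. A fit over all 13 libraries of the series is not part of that definition. It called 1038 genes, 640 higher and 398 lower.

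**Figure D2:**
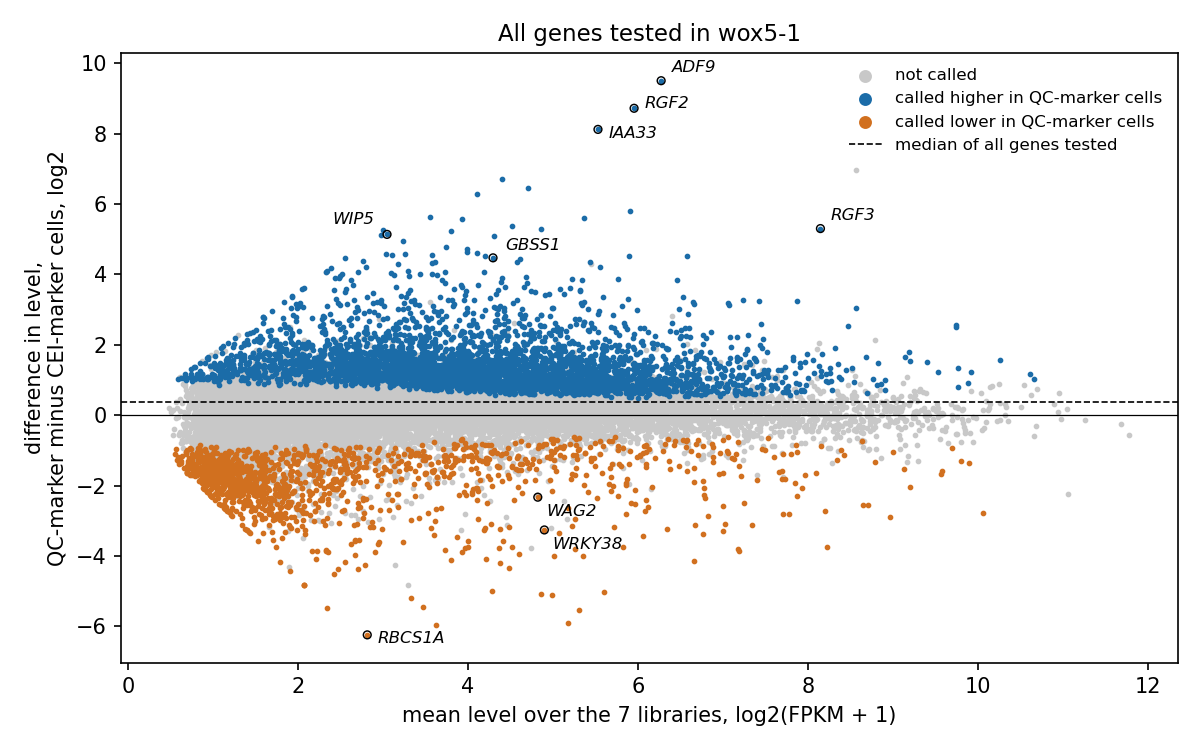
Each point is 1 of the 19735 genes tested, with its mean level over the 7 libraries on the x axis (log2(FPKM + 1)) and the difference in level, QC-marker minus CEI-marker cells, on the y axis (log2). Blue points were called higher in QC-marker cells and orange points lower, and the dashed line is the median of 0.37. ADF9, RGF2 and IAA33 lie highest, at 9.51, 8.73 and 8.12, and RBCS1A lowest among the genes labelled, at -6.25.

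The 15 largest increases were taken among called genes with separate groups and a symbol. All 15 were stable, with log2 differences from 4.53 to 9.51. Of these, WIP5, GRP19, FP6 and HB8 were below 1 FPKM in every CEI-marker library. They passed the filter through QC-marker cells alone and had to differ, so their being stable adds no support. The largest increase was that of ADF9 (AT4G34970), of the actin-depolymerizing factor family. ADF9 was at 1303, 1497, 1502 and 984 FPKM in QC-marker cells, against 0.393, 0.397 and 1.95 in CEI-marker cells. It was high in every QC-marker library and near 0 in every CEI-marker library (difference 9.51 on the log2 scale, SE 0.30, adjusted p = 3.98e-06). IAA33 (AT5G57420), an auxin-response protein of the Aux/IAA family that lacks the canonical degron, was at 522, 450.3, 534 and 563 FPKM in QC-marker cells, against 0, 0 and 5.33 in CEI-marker cells. CEI-marker libraries 1 and 2 list it at 0 (difference 8.12 on the log2 scale, SE 0.58, adjusted p = 0.000149). SGR9 (AT5G02750), a ubiquitin ligase known for the sedimentation of amyloplasts in gravity sensing, was at 76.4, 78.9, 88.5 and 72.9 FPKM in QC-marker cells, against 0, 1.05 and 1.32 in CEI-marker cells (difference 5.57 on the log2 scale, SE 0.31, adjusted p = 4.87e-05). The groups were far apart for each of these genes.

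The same 15 held NAC094, of the NAC transcription factor family (log2 difference 5.3), GRP19, a glycine-rich protein known from the pollen coat (5.14), FP6, a farnesylated metal-binding protein (4.57), MAKR5, a membrane-associated regulator of peptide signalling in the phloem (4.55), and ENODL2, of the early nodulin-like family (4.53). ENODL2 had the widest spread of the 15, at 239, 262, 265 and 163 FPKM in QC-marker cells, against 53.8, 0.764 and 9.04 in CEI-marker cells. The remaining 7, RGF2, IAA20, RGF3, WIP5, WIP4, FEZ and HB8, belong to gene lists described next.

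Most genes of the QC and niche list were higher in QC-marker cells. It names 16 genes for which a place in the QC or stem cell niche is known, apart from WOX5. Of these 14 passed the filter and 11 were called higher, all 11 stable, with 0 lower, where 20.1% of all genes were higher. WIP5, which is among the 11, passed through QC-marker cells alone and had to differ. The list median was 2.82, against 0.37 for all genes. The 11 were higher without each CEI-marker library too, 1 further member being lower without library 4, and 9 were higher when all 13 libraries shared 1 fit. Summed over the 16, the level was 2987, 2816, 2753 and 2675 FPKM in QC-marker cells and 184, 121 and 100.2 FPKM in CEI-marker cells.

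The RGF genes encode secreted peptides that keep the root meristem active. RGF2 (AT1G13620) was at 841, 784, 863 and 824 FPKM in QC-marker cells, against 0.163, 0.248 and 4.17 in CEI-marker cells (difference 8.73 on the log2 scale, SE 0.47, adjusted p = 4.87e-05). RGF3 (AT2G04025) was at 1559, 1298, 1294 and 1346 FPKM in QC-marker cells, against 54.5, 22.8 and 30.5 in CEI-marker cells (difference 5.31 on the log2 scale, SE 0.29, adjusted p = 4.87e-05). RGF1 (AT5G60810) was at 96.7, 109.9, 82.1 and 96.6 FPKM in QC-marker cells, against 7.14, 14.9 and 4.54 in CEI-marker cells (difference 3.43 on the log2 scale, SE 0.33, adjusted p = 0.000512). None of the 3 overlapped between groups, and RGF3, unlike RGF2, was clearly present in CEI-marker cells too. The annotated span of RGF2 overlaps 1 other gene.

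The PLETHORA transcription factors PLT1, PLT2, PLT3 and BBM, which set up the niche in a graded manner, were each higher. PLT1 (AT3G20840) was at 149, 197, 171 and 111 FPKM in QC-marker cells, against 26.4, 17.5 and 13.3 in CEI-marker cells (difference 3.0 on the log2 scale, SE 0.28, adjusted p = 0.000413). PLT2 (AT1G51190) was at 62.2, 85.7, 71.7 and 49.3 FPKM in QC-marker cells, against 16.4, 14.5 and 14.9 in CEI-marker cells (difference 2.04 on the log2 scale, SE 0.22, adjusted p = 0.000783). PLT3 was at 83.3, 135, 84.6 and 68.1 FPKM in QC-marker cells, against 25.7, 9.76 and 9.54 in CEI-marker cells, and BBM was at 29.8, 38.97, 29.8 and 25.8 FPKM in QC-marker cells, against 14.9, 11.004 and 5.32 in CEI-marker cells. Their groups were separate, with log2 differences of 2.65 and 1.58, yet all 4 were expressed in CEI-marker cells, unlike the WIP genes. PLT7, of the same family, was below 3 FPKM in every library and overlapped.

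WIP4, WIP5 and NTT encode related zinc finger transcription factors that act together in root initiation. WIP5 (AT1G51220) was at 35.2, 40.9, 33.7 and 38.9 FPKM in QC-marker cells, against 0, 0.0499 and 0.201 in CEI-marker cells (difference 5.14 on the log2 scale, SE 0.24, adjusted p = 3.51e-05). WIP4 (AT3G20880) was at 58.5, 48.8, 54.9 and 56.4 FPKM in QC-marker cells, against 3.93, 0.0416 and 0.585 in CEI-marker cells (difference 4.79 on the log2 scale, SE 0.47, adjusted p = 0.000535). NTT (AT3G57670) was at 37.04, 38.6, 35.7 and 27.7 FPKM in QC-marker cells, against 0.871, 0.885 and 2.06 in CEI-marker cells (difference 4.01 on the log2 scale, SE 0.27, adjusted p = 0.000116). The 3 genes had levels of the same order in QC-marker cells and lay near 0 in CEI-marker cells, WIP4 in CEI-marker library 1 being the highest exception. TEL1, an RNA-binding protein gene of the niche, was at 18.999, 24.5, 19.3 and 13.3 FPKM in QC-marker cells, against 6.11, 2.097 and 2.47 in CEI-marker cells, a difference of 2.21.

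AGL42 and MYB56, markers of the QC, did not follow the rest of the list. AGL42, a MADS-box gene, was at 9.28, 8.44, 7.06 and 11.4 FPKM in QC-marker cells, against 11.3, 16.6 and 8.44 in CEI-marker cells. MYB56, which restrains QC division, was at 5.33, 2.79, 3.93 and 4.69 FPKM in QC-marker cells, against 15.5, 8.63 and 1.57 in CEI-marker cells. Both overlapped between the groups and neither was called (adjusted p = 0.377 and 0.499 by limma). TEL2 and ERF115 stayed below the filter, TEL2 being listed at 0 in 6 of the 7 libraries.

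**Figure D3:**
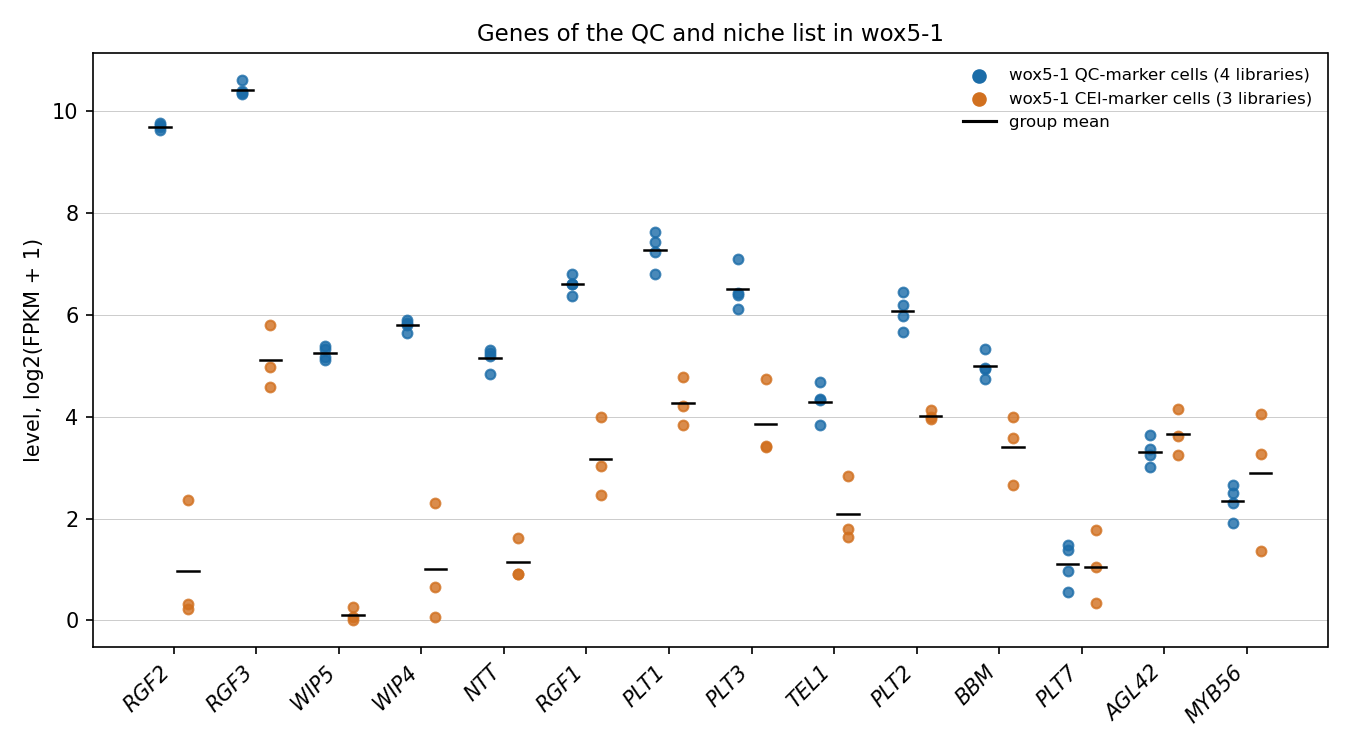
Levels of the 14 tested genes of the QC and niche list, in log2(FPKM + 1), with 1 point per wox5-1 library (blue QC-marker, 4; orange CEI-marker, 3) and a bar at each group mean. RGF2 differs by 8.73 and BBM by 1.58 on this scale, and PLT7, AGL42 and MYB56 at the right overlap.

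Root cap and columella genes were called in both directions. Of the 9 members 5 were higher and 2 were lower, at a median of 2.75. When all 13 libraries shared 1 fit, 4 were higher and 0 lower. FEZ (AT1G26870), a NAC transcription factor that promotes root cap stem cell division, was at 70.6, 78.6, 74.8 and 48.05 FPKM in QC-marker cells, against 0.512, 2.53 and 3.06 in CEI-marker cells (difference 4.6 on the log2 scale, SE 0.36, adjusted p = 0.000213). CLE40, a peptide gene of the columella, was at 8.27, 9.32, 6.796 and 4.61 FPKM in QC-marker cells, against 0, 0 and 0.691 in CEI-marker cells (difference 2.75 on the log2 scale, SE 0.34, adjusted p = 0.00143). SMB (AT1G79580), which ends stem cell activity in the root cap, was at 87.5, 87.3, 86.8 and 55.3 FPKM in QC-marker cells, against 12.1, 0.137 and 21.1 in CEI-marker cells (difference 3.51 on the log2 scale, SE 0.86, adjusted p = 0.0186). FEZ and CLE40 were stable, though CLE40 passed the filter through QC-marker cells alone and had to differ. SMB lost its call without QC-marker library 2 (adjusted p = 0.0553 by limma). SMB was near 0 in CEI-marker library 2 alone among the 3.

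In the lower direction, CEL5, a cellulase gene of detaching root cap cells, was at 70.2, 19.2, 49.1 and 51.8 FPKM in QC-marker cells, against 89.97, 141 and 138 in CEI-marker cells. BRN1, a NAC gene of the mature cap, was at 17.3, 9.62, 17.5 and 33.7 FPKM in QC-marker cells, against 50.8, 30.9 and 52.4 in CEI-marker cells, where QC-marker library 4 overlapped CEI-marker library 2. Both were lower (log2 differences -1.46 and -1.24). CEL5 lost its call without QC-marker library 3 or CEI-marker library 2 or 4 and BRN1 in 5 of the 7 such fits, and BRN2, a close relative of BRN1, was not called (adjusted p = 0.0599 by limma). Besides FEZ, CLE40 and SMB the 5 higher genes included PIN3 and PIN7, auxin efflux carriers of the columella that also stand in the auxin list. Genes of developmental cell death, which runs in the outer cap and the xylem, gave 0 calls among 6 by limma, at a median of 1.12, with 1 gene (BFN1, a nuclease) at an unadjusted p under 0.05, and CEI-marker library 2 had the lowest sum of the 7 (69.3, 75.9, 67.9 and 104 FPKM in QC-marker cells and 57.8, 18.8 and 151 FPKM in CEI-marker cells).

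Most starch synthesis genes were higher in QC-marker cells. Columella cells fill plastids with starch granules that sediment with gravity, and differentiated columella is recognised by them. Of 14 members 11 were called higher and 0 lower, at a median of 1.78, and 7 of the 11 were stable. Without CEI-marker library 2 there were 8 higher and without library 4 there were 7. When all 13 libraries shared 1 fit 4 were higher, GBSS1, APL4, SBE2.1 and SBE2.2. GBSS1 (AT1G32900), the granule-bound starch synthase, was at 74.3, 94.6, 74.7 and 54.5 FPKM in QC-marker cells, against 3.78, 1.85 and 1.74 in CEI-marker cells (difference 4.47 on the log2 scale, SE 0.28, adjusted p = 7.19e-05). APL4 (AT2G21590), a large subunit of ADP-glucose pyrophosphorylase, was at 48.4, 75.3, 44.8 and 41.4 FPKM in QC-marker cells, against 5.36, 2.89 and 1.58 in CEI-marker cells (difference 3.7 on the log2 scale, SE 0.34, adjusted p = 0.000413). Neither overlapped, and both lay below 6 FPKM in every CEI-marker library.

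The branching enzymes SBE2.1 and SBE2.2 differed by 1.89 and 1.84, the debranching enzyme ISA1 by 1.79, the synthase SS2 by 1.84 and plastid phosphoglucomutase PGM by 1.19, and these 5 completed the stable set. SS3, APL2, SS1 and APL3 were called with adjusted p between 0.0191 and 0.0478 by limma but were not stable. ADG1, the small subunit of ADP-glucose pyrophosphorylase, was at 49.6, 68.5, 57.9 and 28.4 FPKM in QC-marker cells, against 43.2, 12.8 and 14.8 in CEI-marker cells. Here CEI-marker library 1 lay among the QC-marker libraries, and ADG1 was not called (difference 1.23 on the log2 scale, SE 0.44, adjusted p = 0.0689). SS4 and APL1 had differences of -0.13 and -0.15 and overlapped.

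Auxin synthesis and transport genes were called in both directions. Auxin is made from tryptophan by TAA1 and the YUC monooxygenases, enters cells through AUX1 and LAX carriers and leaves them through PIN carriers, whose placement AGC kinases (PID, WAG1 and WAG2) control. Of 20 tested members 11 were higher and 3 lower, at a median of 1.76, and 11 higher and 2 lower were stable. When all 13 libraries shared 1 fit, 7 were higher and 1 lower.

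Among synthesis genes, YUC3 (AT1G04610) was at 454, 530.5, 499 and 339 FPKM in QC-marker cells, against 51.3, 49.1 and 40.1 in CEI-marker cells (difference 3.24 on the log2 scale, SE 0.22, adjusted p = 0.000104). TAA1 (AT1G70560) was at 67.1, 76.7, 64.4 and 69.7 FPKM in QC-marker cells, against 24.4, 9.11 and 7.44 in CEI-marker cells (difference 2.44 on the log2 scale, SE 0.35, adjusted p = 0.00256). YUC7, YUC8 and YUC9 were higher as well, by 3.18, 1.92 and 2.05. YUC3 was the most abundant of the family in QC-marker cells per unit of length. YUC5 and TAR2 were not called, and TAR2 did not overlap either (1.47, 0.662, 1.82 and 1.69 FPKM, against 10.3, 1.85 and 3.96 FPKM in CEI-marker cells).

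Among carriers, LAX2 (AT2G21050) was at 104, 143, 96.1 and 91.998 FPKM in QC-marker cells, against 13.6, 7.16 and 4.74 in CEI-marker cells (difference 3.62 on the log2 scale, SE 0.32, adjusted p = 0.000371). PIN4 (AT2G01420) was at 308, 445, 418 and 239.8 FPKM in QC-marker cells, against 40.3, 49.8 and 27.1 in CEI-marker cells (difference 3.14 on the log2 scale, SE 0.29, adjusted p = 0.00041). PIN3 (AT1G70940) was at 94.6, 115, 127 and 80.8 FPKM in QC-marker cells, against 17.2, 9.58 and 6.55 in CEI-marker cells (difference 3.2 on the log2 scale, SE 0.31, adjusted p = 0.000512). These 3 carriers did not overlap, and each was the lowest in CEI-marker library 4. PIN7 and LAX3 were higher by 3.36 and 2.78. PIN2, the carrier of epidermis and cortex, ran the other way, at 31.8, 26.9, 26.1 and 28.7 FPKM in QC-marker cells, against 79.9, 31.4 and 72.7 in CEI-marker cells, and its call (difference -0.98 on the log2 scale, SE 0.31, adjusted p = 0.0474) held in 1 of the 7 fits without a library. AUX1 and ABCB4 overlapped, with differences of -0.11 and 0.10, and ABCB19, an efflux transporter, was separate but not called (0.59, adjusted p = 0.0761 by limma).

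The kinase genes WAG2 and WAG1 were lower. WAG2 (AT3G14370) was at 11.8, 12.9, 14.5 and 13.7 FPKM in QC-marker cells, against 63.9, 83.4 and 64.98 in CEI-marker cells (difference -2.33 on the log2 scale, SE 0.19, adjusted p = 0.000283). WAG1 (AT1G53700) was at 6.95, 9.72, 9.79 and 17.3 FPKM in QC-marker cells, against 92.2, 44.7 and 52.1 in CEI-marker cells (difference -2.42 on the log2 scale, SE 0.34, adjusted p = 0.00239). Both were stable, with every QC-marker library below every CEI-marker library. PID, the third kinase, was at 3.69, 5.64, 3.61 and 3.34 FPKM in QC-marker cells, against 9.7001, 0.165 and 13.97 in CEI-marker cells, and overlapped.

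Auxin response genes were mixed, with 3 of 10 tested members higher, 1 lower and a median of 0.01. The fit over all 13 libraries gave 2 higher and 0 lower. IAA20 (AT2G46990) and IAA30 (AT3G62100), Aux/IAA proteins without the canonical degron, were the 2 stable increases. IAA20 was at 103, 119, 119.9 and 109.6 FPKM in QC-marker cells, against 1.52, 1.33 and 2.44 in CEI-marker cells (difference 5.38 on the log2 scale, SE 0.21, adjusted p = 1.24e-05). IAA30 was at 91.7, 83.6, 83.5 and 92.9 FPKM in QC-marker cells, against 12.5, 7.69 and 19.5 in CEI-marker cells (difference 2.73 on the log2 scale, SE 0.28, adjusted p = 0.00061). GH3.6, which conjugates auxin to amino acids, was lower at 11.1, 9.18, 10.4 and 14.5 FPKM in QC-marker cells, against 19.8, 37.2 and 33.7 in CEI-marker cells (difference -1.31 on the log2 scale, SE 0.28, adjusted p = 0.0109), and stable. IAA19 was called (1.02) and not stable, and the commonly used response genes IAA1, IAA2, IAA5, GH3.1 and GH3.3 overlapped.

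The WOX and GRF families, to which the genes in the series title belong or with which they act, were sparsely expressed. Of 15 WOX genes 5 passed the filter and 2 were higher, both stable. WOX11 (AT3G03660) was at 44.1, 45.4, 39.7 and 34.3 FPKM in QC-marker cells, against 5.22, 2.39 and 0.941 in CEI-marker cells (difference 3.6 on the log2 scale, SE 0.37, adjusted p = 0.000646). WOX12 (AT5G17810) was at 46.1, 60.01, 49.003 and 35.004 FPKM in QC-marker cells, against 2.58, 8.59 and 6.86 in CEI-marker cells (difference 2.88 on the log2 scale, SE 0.35, adjusted p = 0.00133). Both act in founder cells of adventitious roots, and neither overlapped. WOX13 was at 16.1, 20.5, 14.6 and 13.6 FPKM in QC-marker cells, against 2.26, 11.9 and 6.5003 in CEI-marker cells, with separate groups but outside the threshold (difference 1.32 on the log2 scale, SE 0.43, adjusted p = 0.0507), and WOX7 and WOX9 overlapped.

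Growth-regulating factors (GRF) are transcription factors that work with GIF coactivators such as AN3. GRF3 (AT2G36400) was at 2.61, 3.15, 4.86 and 4.399 FPKM in QC-marker cells, against 27.9, 13.2 and 24.8 in CEI-marker cells (difference -2.24 on the log2 scale, SE 0.33, adjusted p = 0.00277). GRF6 was at 0, 0.135, 0.124 and 0.4201 FPKM in QC-marker cells, against 3.45, 2.66 and 4.46 in CEI-marker cells, and GRF1 was at 1.73, 0.579, 3.53 and 2.38 FPKM in QC-marker cells, against 13.2, 5.998 and 7.69 in CEI-marker cells. All 3 were lower with separate groups, GRF3 being the stable member. GRF1 lost its call without QC-marker library 1 (adjusted p = 0.0502 by limma). GRF6 left the test without a CEI-marker library, as it passed the filter through CEI-marker cells alone and had to differ. Meanwhile the coactivator gene GIF3 was higher (1.32) without being stable. In total 1 of the 7 tested members of the 12 was higher and 3 were lower, at a median of -1.24. The fit over all 13 libraries called 0 of them. Without CEI-marker library 1 the median was -0.28, with 2 of 6 higher and 2 lower. In the list of TGA bZIP factors, to which PAN belongs, PAN was the 1 call among 10 tested.

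Cell division lists held few calls. With all 13 libraries in 1 fit, 0 genes of S phase and replication and 0 of G2 and M phase were called. Of 18 genes of S phase and replication 2 were higher and 0 lower, at a median of 0.51. MCM5, of the replicative helicase, was at 23.98, 34.001, 30.3 and 19.6 FPKM in QC-marker cells, against 13.7, 3.85 and 7.22 in CEI-marker cells (difference 1.71 on the log2 scale, SE 0.38, adjusted p = 0.0132) and stable. E2FA, a transcription factor of S phase entry, was higher by 1.01. The call of E2FA held in 2 of the 7 fits without a library and was lost with the variance weights. CEI-marker library 2 had the lowest S phase sum, at 79.0 FPKM, against 236 to 372 FPKM in the other 6 libraries. Without CEI-marker library 1, 8 of the 18 were higher, and without CEI-marker library 2, 2 were higher and 3 lower.

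Of 22 genes of G2 and M phase 1 was higher and 2 were lower, at a median of -0.06. CDC20.1 (AT4G33270), an activator of the anaphase-promoting complex, was at 10.6, 9.56, 9.15 and 10.6 FPKM in QC-marker cells, against 19.3, 22.2 and 31.2 in CEI-marker cells (difference -1.17 on the log2 scale, SE 0.23, adjusted p = 0.00891). It was stable, with every QC-marker library lower. The close copy CDC20.2 was lower too (-1.16), and fragments of such copies may be assigned to the wrong gene. CYCA2;3, a cyclin, was higher by 0.95, and the mitotic B-type cyclins were not called. The calls of CDC20.2 and CYCA2;3 held in 1 and 4 of the 7 fits without a library. Both were lost with the variance weights.

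Lists of cell cycle regulators held calls in both directions. In 1 fit over all 13 libraries, 0 D-type cyclins and 0 inhibitors of cyclin-dependent kinases were called. Among 9 tested D-type cyclins, CYCD3;3 (AT3G50070) was at 60.04, 65.3, 55.6 and 43.3 FPKM in QC-marker cells, against 6.62, 7.54 and 7.68 in CEI-marker cells (difference 2.77 on the log2 scale, SE 0.21, adjusted p = 0.000167). CYCD3;2 and CYCD4;2 were higher by 1.21 and 1.21, and CYCD3;1 was lower (-1.05), so 3 were higher and 1 lower, with CYCD3;3 the stable call. Of 12 inhibitors of cyclin-dependent kinases 4 were higher and 3 lower. KRP7 (AT1G49620) was at 50.7, 56.1, 62.2 and 38.4 FPKM in QC-marker cells, against 8.95, 3.898 and 3.63 in CEI-marker cells (difference 3.1 on the log2 scale, SE 0.31, adjusted p = 0.000603). SIM, which starts endoreduplication in differentiating cells, was at 28.04, 21.3, 32.1 and 50.98 FPKM in QC-marker cells, against 80.7, 144 and 65.8 in CEI-marker cells (difference -1.51 on the log2 scale, SE 0.35, adjusted p = 0.0151). KRP4 and KRP6 were also stable and higher (1.63 and 1.59). SMR1, a relative of SIM, was lower (-1.63), as was KRP1 (-1.21), but the 3 lower calls did not hold with the variance weights. SMR4 was higher by 1.39 and not stable.

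Markers of root cell types were read as a check of the population names. In the young ground tissue list, the lineage of the CEI, 0 of 7 tested members were higher and 1 was lower in QC-marker cells. That gene was MGP, a zinc finger target of SHR and SCR, at 6.15, 4.44, 6.05 and 7.06 FPKM in QC-marker cells, against 21.2, 11.04 and 10.8 in CEI-marker cells (difference -1.1 on the log2 scale, SE 0.31, adjusted p = 0.03). It lost its call without QC-marker library 1, 2 or 3 (adjusted p from 0.0734 to 0.0796 by limma) and with the variance weights (0.0646). NUC, a related zinc finger gene, did not overlap either (11.3, 3.38, 5.77 and 12.7 FPKM, against 13.8, 13.98 and 13.2 FPKM in CEI-marker cells) and was not called. JKD, SCL3 and SCL23 overlapped. The list median was 0.06, and -0.34 with median-of-ratios scaling. The 2 cortex genes, AED3 and CO2, were not called (-1.04 and -0.04).

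Differentiating endodermis gave 2 of 9 higher (22.2%), near the 20.1% of all genes, at a median of 1.15. The fit over all 13 libraries called 0 of the 9. CASP1, a Casparian strip membrane protein, was at 36.7, 21.03, 86.7 and 46.7 FPKM in QC-marker cells, against 19.2, 4.05 and 6.46 in CEI-marker cells (difference 2.24 on the log2 scale, SE 0.55, adjusted p = 0.0192), and ESB1, a dirigent protein of the strip, was higher by 2.08. QC-marker library 3 was the highest for CASP1, and its sum over the list was 208 FPKM, against 61.7 to 104 FPKM in the other QC-marker libraries. ESB1 lost its call without QC-marker library 3 and CASP1 without that library or CEI-marker library 2 or 4 (adjusted p from 0.0503 to 0.0645 by limma).

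In the stele and pericycle list 5 of 17 tested members were higher and 1 lower, at a median of 0.46. HB8 (AT4G32880), an HD-ZIP III transcription factor of the procambium, was at 36.8, 34.1, 30.1 and 29.1 FPKM in QC-marker cells, against 0, 0.4804 and 0.895 in CEI-marker cells (difference 4.56 on the log2 scale, SE 0.29, adjusted p = 7.19e-05). REV, of the same class, was at 14.6, 21.5, 17.02 and 10.8 FPKM in QC-marker cells, against 2.57, 3.88 and 1.95 in CEI-marker cells (difference 2.15 on the log2 scale, SE 0.31, adjusted p = 0.00258). These were the 2 stable members, and HB8 passed the filter through QC-marker cells alone and had to differ. In 1 fit over all 13 libraries HB8 kept its call and REV lost it. PHV, also HD-ZIP III, was higher by 1.45 and lost its call without QC-marker library 3 (adjusted p = 0.0555 by limma), PHB was not called (0.94, adjusted p = 0.0966 by limma), and CNA was below the filter. TMO5 and CVP2 were higher by 1.56 and 1.03. The call of TMO5 held in 3 of the 7 fits without a library. CVP2 left the test without QC-marker library 1, 2 or 3. It passed the filter through those QC-marker libraries alone, so its direction was largely fixed. LBD29, a lateral root gene, was lower at 0, 0, 0.112 and 0 FPKM in QC-marker cells, against 1.73, 11.1 and 1.04 in CEI-marker cells. LBD29 passed the filter through CEI-marker cells alone and had to differ. LHW was listed at 0 in QC-marker library 4 and at 26.9 to 37.2 FPKM in the other 3.

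Epidermis and root hair genes were abundant in both populations. The 12 members summed to 1280.1, 1465, 1803 and 2098 FPKM in QC-marker cells and to 1737, 1564 and 2366 FPKM in CEI-marker cells. PRP3, a cell wall protein of root hairs, was at 603, 747, 892 and 1094 FPKM in QC-marker cells, against 1077, 842 and 1392 in CEI-marker cells. EXPA7, a root hair expansin, was at 227, 279.5, 343 and 379.6 FPKM in QC-marker cells, against 199, 241 and 195 in CEI-marker cells. Neither gene was called. Of the 12, RSL2 and EGL3 were lower (-1.22 and -1.44), 0 were higher and the median was -0.06. The calls of RSL2 and EGL3 held in 4 and 5 of the 7 fits without a library. Both were lost with the variance weights. The part of these cells in the results above was not tested.

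**Figure D4:**
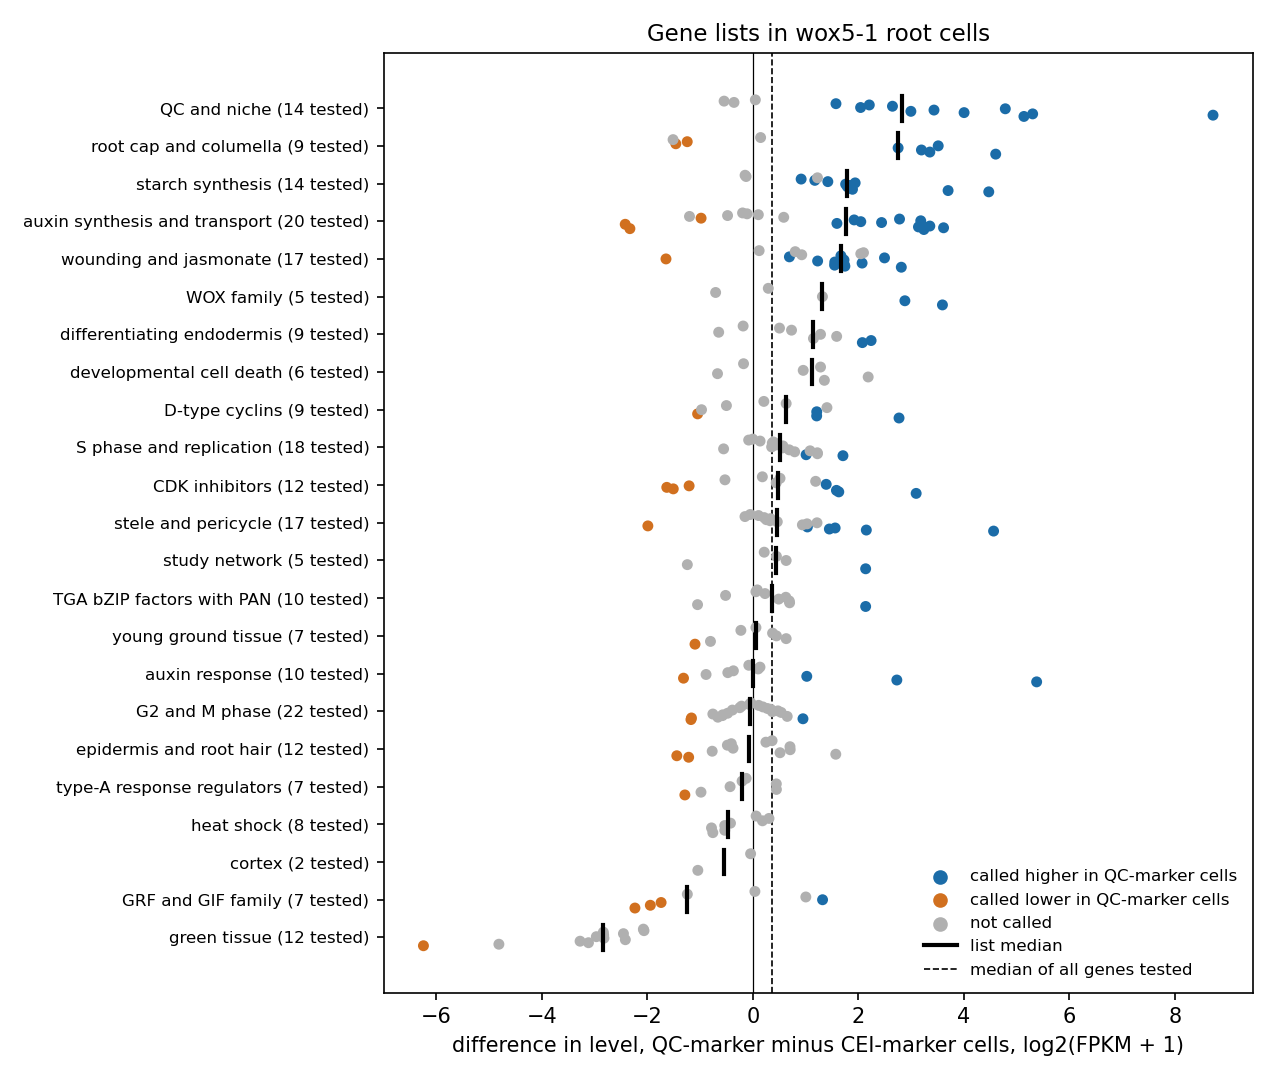
Each row is a gene list with its number of tested genes, and each point is the difference in level of 1 gene, QC-marker minus CEI-marker cells, in log2(FPKM + 1). Blue and orange points were called higher and lower, grey points were not called, thick bars are list medians and the dashed line is the median of all genes, 0.37. QC and niche genes have the highest median, 2.82, and green tissue genes the lowest, -2.83.

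Most wounding and jasmonate genes, which protoplasting is known to induce, were higher in QC-marker cells. Both populations were protoplasted, and the part of that step in the difference was not tested. Of 17 tested members 11 were higher and 1 lower, at a median of 1.67, and 8 of the 11 were stable. With median-of-ratios scaling 8 were higher, and when all 13 libraries shared 1 fit the 2 higher genes were JAZ5 and JAZ2. JAZ5 (AT1G17380), a repressor of jasmonate signalling, was at 52.9, 52.3, 51.8 and 40.3 FPKM in QC-marker cells, against 13.3, 6.81 and 2.22 in CEI-marker cells (difference 2.82 on the log2 scale, SE 0.44, adjusted p = 0.00335). JAZ10 was at 262, 212, 252 and 305 FPKM in QC-marker cells, against 91.2, 99.4 and 47.6 in CEI-marker cells (difference 1.75 on the log2 scale, SE 0.28, adjusted p = 0.00372). WRKY40, a stress transcription factor, was at 425, 487, 398 and 393 FPKM in QC-marker cells, against 194, 154 and 68.6 in CEI-marker cells (difference 1.73 on the log2 scale, SE 0.34, adjusted p = 0.00815). The 3 genes were separate between groups and were lowest in CEI-marker library 4, which also had the lowest list sum, at 1130 FPKM, against 1481 and 1985 FPKM in CEI-marker libraries 1 and 2 and 3557 to 3870 FPKM in QC-marker cells. The other stable members were JAZ2, JAZ8, JAZ9, OPR3 and AOC1, the last 2 being enzymes of jasmonate synthesis. LOX2, a lipoxygenase of leaf plastids, was the lower call. Its level was 0.486, 0.0712, 0.0484 and 0.573 FPKM in QC-marker cells, against 5.53, 1.56 and 2.78 in CEI-marker cells. LOX2 passed the filter through CEI-marker cells alone and had to differ.

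Heat shock genes gave 0 calls among 8 by limma and 0 at an unadjusted p under 0.05, at a median of -0.48, which was 0.03 without CEI-marker library 1. Cytokinin response was represented by type-A response regulators, of which 1 of 7 tested was lower, ARR6 (-1.29), and 0 higher. ARR6 was not stable. In the housekeeping list, 2 of 6 genes were higher, PP2AA3 (0.69) and ACT7 (0.63), at a median of 0.39, close to the 0.37 of all genes. With median-of-ratios scaling 0 of the 6 were called and the median was -0.02.

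Of the 15 largest decreases, 14 passed with the variance weights and 13 with median-of-ratios scaling. For 7 of them the filter was met by the 3 CEI-marker libraries alone, so they had to differ, could not be stable as defined above and are given as values. The other 8 stayed in the test without each library in turn, and 4 of these, WRKY38, WRKY70, CLE19 and XTH31, were stable. WRKY38 (AT5G22570), a transcription factor of salicylic acid defence, was at 9.42, 6.19, 13.6 and 14.1 FPKM in QC-marker cells, against 98.5, 114 and 112 in CEI-marker cells (difference -3.26 on the log2 scale, SE 0.28, adjusted p = 0.000322). WRKY70 (AT3G56400), of the same pathway, was at 4.74, 3.001, 3.87 and 2.97 FPKM in QC-marker cells, against 37.8, 66.8 and 27.1 in CEI-marker cells (difference -3.19 on the log2 scale, SE 0.33, adjusted p = 0.000649). Neither overlapped, and both were well expressed in every CEI-marker library. CLE19, a signalling peptide, was at 0.613, 0, 0.337 and 1.15 FPKM in QC-marker cells, against 6.26, 18.2 and 15.4 in CEI-marker cells, and XTH31, a xyloglucan-modifying enzyme, was at 0.862, 2.37, 0.588 and 0.531 FPKM in QC-marker cells, against 5.04, 22.9 and 34.4 in CEI-marker cells.

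Photosynthesis genes made up 4 of the 15: RBCS1A, PSAG, PSBTN and PSAN. RBCS1A, whose values are given above, was called at an adjusted p = 0.0469 by limma, and lost the call without each of the 4 QC-marker libraries (0.0813 to 0.107). RBCS1A passed the filter through CEI-marker cells alone and had to differ. PSAG, a photosystem I subunit, was at 0.984, 0.412, 0.0802 and 1.23 FPKM in QC-marker cells, against 351, 4.26 and 6.41 in CEI-marker cells. PSAG, PSBTN and PSAN differed by -3.89, -3.82 and -3.19, and by -1.95, -1.99 and -1.60 without CEI-marker library 1. CEI-marker libraries 2 and 4 also lay above every QC-marker library for these genes. Of the 12 tested green tissue genes 1 was lower, at a median of -2.83, and that call was RBCS1A. Without library 1, 3 of 10 were lower, at a median of -0.70. RBCS and LHCB1 genes are near-identical copies, so fragments may be assigned to the wrong member.

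Another 4 of the 15 were microRNA loci. Their values are those of the annotated loci and not of mature microRNAs, and a link to HD-ZIP III levels was not tested. MIR166a, whose product directs cleavage of HD-ZIP III transcripts such as that of HB8, was listed at 0 in each of the 4 QC-marker libraries, and the CEI-marker libraries held 11.3, 119.9 and 57.8 FPKM. MIR850 and MIR406 were likewise listed at 0 in QC-marker cells, and stood at 3.67, 19.1 and 8.48 FPKM and at 4.19, 22.4 and 5.77 FPKM in CEI-marker cells. MIR774a was at 17.3, 0, 0 and 0 FPKM in QC-marker cells, against 21.9, 32.8 and 22.8 in CEI-marker cells, the value of QC-marker library 1 being far from the other 3. Of 47 microRNA loci tested, 33 passed the filter without each library in turn, and of those 8 were lower and 2 higher. MIR166e and MIR166b, of the same family, were not called. MIR166e was at 15.5, 0, 5.68 and 0 FPKM in QC-marker cells, against 22.7, 92.8 and 5.85 in CEI-marker cells, and MIR166b was at 10.2, 0, 11.1 and 14.9 FPKM in QC-marker cells, against 12.4, 0 and 0 in CEI-marker cells, and both overlapped. Of all genes tested, 37 were listed at 0 in every QC-marker library and 30 in every CEI-marker library. The 37, all of them called lower, passed the filter through CEI-marker cells alone and had to differ. Likewise the 30, of which 24 were called higher, passed it through QC-marker cells alone, so their direction was fixed as well.

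SAUR29, of an auxin-induced family (-3.49), RALFL7, a peptide gene (-3.34), and SNG1, which makes sinapoylmalate (-3.33), completed the 15. Each was below 1 FPKM in every QC-marker library, so these 3 differences rest on CEI-marker values between 2.72 and 48.7 FPKM.

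Organelle transcripts were lower more often than protein-coding genes. Of 82 chloroplast-encoded genes tested 71 were lower and 0 higher, at a median of -3.07, and 68 of 80 were lower without CEI-marker library 1. Among genes that passed the filter without each library in turn, 71 of 80 chloroplast-encoded genes, 17 of 45 mitochondrion-encoded genes, 20 of 113 pseudogenes and 43 of 144 transcribed pseudogenes were lower, against 701 of 17814 protein-coding genes. Protein-coding genes called lower had a median annotated span of 1509 bases and 8.54% of them spanned under 500 bases, while those called higher had a median of 2475 bases and 0.538%, and those not called 2365 bases and 1.59% (RefSeq, TAIR10.1 assembly). Whether span or library composition bears on the calls was not tested. With organelle genes removed and FPKM rescaled, an alternative chosen after seeing the data, 2601 genes were higher and 1380 lower.

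Whether the populations differ in another way in the mutant than in the wild type was tested as the difference of their effects in 1 fit over all 13 libraries. Of 21574 genes 5 were called (0.0232%), 2 with a positive and 3 with a negative difference, and 2405 passed at an unadjusted p under 0.05. WAG2 was the 1 called gene among the lists. In the wild type it stood at 76.6, 74.8 and 44.7 FPKM in QC-marker cells, against 26.3, 25.5 and 48.4 FPKM in CEI-marker cells, where the groups overlap, and its mutant values are given above. The difference of effects was -3.30 (SE 0.49, adjusted p = 0.0363 by limma). The 4 others carry no symbol. In mutant CEI-marker cells AT2G41233 was at 28.3, 21.6 and 14.4 FPKM, and every other library of the 13 lists it at 0. It passed the filter through that group alone and had to differ, as did ATMG00360. In the same cells AT3G44440 was at 5.59, 4.22 and 4.803 FPKM and was listed at 0 in mutant QC-marker cells, while in the wild type it was at 3.79, 4.33 and 3.25 FPKM in QC-marker cells and at 0, 0 and 1.76 FPKM in CEI-marker cells. AT3G17100 was at 99.1, 87.7, 36.05 and 102 FPKM in mutant QC-marker cells and at 39.3, 49.8 and 52.8 FPKM in mutant CEI-marker cells, against at most 0.952 FPKM in wild-type QC-marker cells and 19.6 to 65.3 FPKM in wild-type CEI-marker cells. ATMG00360 was listed at 0 in 10 libraries and at 39.6, 12.0 and 12.2 FPKM in wild-type CEI-marker cells.

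The count of 5 was 0 without mutant CEI-marker library 1, 2 or 4 and with a filter at 5 FPKM, and 59 without wild-type QC-marker library 1. None of the QC and niche, root cap or starch genes described above was among the 5, so their differences in the mutant are not shown to differ from those in the wild type. Of the genes called in the mutant, 2442 of 3975 higher ones had a positive difference in the wild type as well (median 0.27), and 872 of 1323 lower ones a negative one (median -0.32), and all genes tested in the mutant had a wild-type median of -0.08. Wild-type QC-marker libraries were shallower, at an estimated 6.29 to 8.03 M fragments, and depth and genotype cannot be told apart in that group. Wild-type CEI-marker libraries 1, 3 and 4 were unlike each other. Their root cap list summed to 132, 19.6 and 2471 FPKM, and their QC and niche list to 305, 258 and 761 FPKM. Wild-type QC-marker library 2 had 11074 genes at 1 FPKM or above, against 18448 and 18009 in libraries 1 and 3.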

How the data were processed

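Arabidopsis cells sorted by a QC or a CEI reporter from wox5-1 roots were profiled by RNA sequencing. The authors deposited FPKM per gene and library, made with Cufflinks per the submitters' processing notes, with aligner, genome build, annotation and strand setting not given in the sources used here. No molecular identifiers are named, so estimated depths cover fragments and not molecules. Depth was estimated from steps in the FPKM values of low genes, where 32.5 to 43.4% of values fell within 0.1 fragment of a whole number (20% by chance), so no counts were recovered and no count model was used.

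From the deposited FPKM, log2(FPKM + 1) was computed, which understates changes of low genes. Genes with at least 1 FPKM in at least 3 of the 7 libraries were tested with limma 3.58.1 in R 4.3.3 (2-group model, mean-variance trend, moderated test, Benjamini-Hochberg adjustment over the 19735 genes, call at 0.05). The 2-sided test had 5 residual and 3.88 prior degrees of freedom. All differences are QC-marker minus CEI-marker cells. The difference of effects between genotypes came from 1 fit over 13 libraries. Steps were checked on simulated data, where groups of unequal spread gave more false calls than the threshold allows. This is why the fit with a variance weight per group (1.92 for QC-marker and 0.418 for CEI-marker cells) is given.

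The members and the 24 gene lists (287 loci) were chosen with earlier results of these data known. Genes named are the study's network of 6, the 15 largest increases and decreases (called, with a symbol, groups separate), up to 4 members of each list by smallest p, and called genes of the genotype contrast. Other members, and the HD-ZIP III and microRNA loci set side by side, were chosen after their values were seen. Alternatives changed the pseudocount to 0.1 or 5, the filter to none or to 5 FPKM, and the scaling to median-of-ratios or quantile. Others were 1 fit over 13 libraries, variance weights, no trend, robust estimation and leaving out each library. Symbols came from a RefSeq table of assembly TAIR10.1, which matched 32826 of 33560 IDs, 10651 of them with a symbol. Values of 2 list members are not reported here, though they stand in the counts, sums and medians of their lists.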

Additional observations from a re-analysis of the deposited data

Results flagged for a closer look

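Of 101 groups of 4 QC-marker libraries tested for a value far from the other 3, which chance flags in about 1 in 20 groups, 5 held such a value. MIR774a was at 17.3 FPKM in QC-marker library 1 and listed at 0 in the others. The epidermis genes EGL3 and GL2 were at 0.651 FPKM in QC-marker library 2, against 2.51 to 2.60 FPKM, and at 13.03 FPKM in QC-marker library 4, against 7.33 to 7.68 FPKM. JAZ5 was at 40.3 FPKM in QC-marker library 4, against 51.8 to 52.9 FPKM. TGA2, a bZIP factor, was at 14.1 FPKM in the same library, against 21.2 to 21.6 FPKM.

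Limma's test of the difference itself called 5 genes for a population effect that differed between mutant and wild type. AT2G41233 and ATMG00360 passed the filter through 1 group alone and had to differ. The count of calls was 0 without mutant CEI-marker library 1, 2 or 4. The difference of log2 effects, wox5-1 minus wild type, was 5.07 for AT3G17100 (SE 0.71) and 4.25 for ATMG00360 (SE 0.61). It was -4.44 for AT2G41233 (SE 0.51), -4.31 for AT3G44440 (SE 0.62) and -3.30 for WAG2 (SE 0.49). The adjusted p was 0.00865 for AT2G41233, 0.0363 for WAG2 and 0.0325 for the other 3.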

How the results depend on the processing

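The 5298 calls became 3467 with median-of-ratios scaling, 3028 with a variance weight per group and 1038 in 1 fit over 13 libraries, and ran from 2638 (without QC-marker library 3) to 7921 (without CEI-marker library 1) when a library was left out. The 5 calls of the difference between genotypes became 15 with no filter, 0 with a filter at 5 FPKM and 17 with quantile normalization, and ran from 0 to 59 without a library. With 2 alternatives chosen after seeing the data, 3811 genes were called without CEI-marker library 1 and with variance weights, and 3981 without organelle genes. Of the 115 genes in these tests, 213 results lost the threshold, 31 gained it, 9 changed sign and 1876 did neither, and 23 of 456 list medians moved by more than their spread. The 9 came from 4 genes that were not called. SHR was at -0.037 with median-of-ratios scaling and at -0.059 without CEI-marker library 1, with or without weights, and ran from -0.063 to 0.77 without a library. Likewise CO2 ran from -0.24 to 0.23, HSP17.6A from -1.77 to 0.028 (0.028 without CEI-marker library 1, with or without weights) and HSP101 from -1.35 to 0.047. The cause of these changes was not tested. No paired analysis was possible because the CEI-marker columns are numbered 1, 2 and 4, unlike the replicates in the titles, and the 2 populations come from different reporter lines.

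Limits are the small groups, the unequal spread of the 2 populations, and FPKM without counts, so that low genes carry an unknown counting error and an exact 0 is not told from a failed estimate. Reporter and population are the same contrast, so effects of the reporter line cannot be told apart from those of cell identity.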

Other observations

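Counts for other gene families follow, chosen by symbol after their values were seen and with no test of a family. Of 20 tested Aux/IAA genes, repressors of auxin response, 8 were called higher in QC-marker cells and 0 lower, 6 of them stable, with a median log2 difference of 0.67 (0.27 with median-of-ratios scaling). IAA8 was at 145, 169.7, 141 and 116 FPKM in QC-marker cells, against 33.7, 31.7 and 23.4 in CEI-marker cells, a difference of 2.24. IAA10 and IAA13 were higher by 1.76 and 1.78. Of 12 ARF genes, the transcription factors these proteins bind, 3 were higher and 0 lower, with 1 of the 3 stable. Of 8 SAUR genes, which are induced by auxin, 1 was higher and 5 were lower, at a median of -1.43. The higher call was stable and 0 of the 5 lower calls were. SAUR29, among the lower calls, passed the filter through CEI-marker cells alone and had to differ.

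Of 8 RGF genes 5 were higher and 0 lower. Besides RGF1, RGF2 and RGF3, RGF5 was at 22.2, 20.4, 26.5 and 27.7 FPKM in QC-marker cells, against 1.198, 3.58 and 7.86 in CEI-marker cells, and RGF8 was at 118, 127, 124 and 128 FPKM in QC-marker cells, against 65.5, 61.1 and 30.97 in CEI-marker cells. The 5 calls had separate groups, and 4 were stable. Among 20 CLE genes, which encode signalling peptides, 3 were higher and 5 lower. The 3 higher and 2 of the 5 lower calls were stable. CLE1 and CLE20 differed by 2.86 and 1.96, and CLE7 by -2.91. Of 13 RALF peptide genes 1 was higher and 4 were lower, with the higher call and 1 of the 4 lower calls stable.

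Of 22 XTH genes, whose products cut and rejoin xyloglucan in the cell wall, 1 was higher and 5 were lower, 4 of them stable. XTH8 was at 33.5, 11.4, 34.1 and 44.6 FPKM in QC-marker cells, against 124, 193 and 177 in CEI-marker cells (-2.5). XTH13 was at 14.8, 14.9, 37.8 and 41.4 FPKM in QC-marker cells, against 236, 76.1 and 299 in CEI-marker cells, and XTH12, a close copy whose fragments may be shared with it, was at 42.8, 43.5, 70.01 and 109 FPKM in QC-marker cells, against 263, 139 and 319 in CEI-marker cells. Every QC-marker library was below every CEI-marker library for the 3 genes. Of 15 alpha-expansin genes 5 were higher and 1 was lower, with 2 of the higher calls stable and 0 of the lower. Of 52 WRKY genes 8 were higher and 9 lower, WRKY23 differing by 2.77, WRKY72 by -2.25 and WRKY11 by -2.16. Stable WRKY calls were 4 of the 8 and 6 of the 9. Of 18 ERF genes, which respond to ethylene and stress, 8 were higher and 0 lower, 2 of them stable. Over all genes tested 20.1% were higher and 6.7% lower.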
